A study of Mus musculus with 31 samples.

Results

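The proteasome is the large protease that degrades proteins tagged with ubiquitin. Its genes were taken here as all mouse genes with a symbol of the Psma, Psmb, Psmc, Psmd, Psme, Psmf or Psmg families to which a probe of the array is assigned alone. The rule gave 48 genes with 49 probes, out of 15096 named genes, and used no measured value. They comprise 8 alpha and 7 standard beta subunits of the core particle, 4 inducible or tissue-restricted beta subunits, 6 ATPases and 14 other subunits or chaperones of the cap, 4 activators, 4 core assembly chaperones and 1 inhibitor. Expression was measured in whole brain of male mice aged 8 weeks from 31 BXD/TyJ recombinant inbred strains, whose founders are C57BL/6J and DBA/2J. Each strain contributed a pool of RNA from 3 animals, which was labelled with Alexa Fluor 647 and set against C57BL/6J whole-brain RNA in Alexa Fluor 555 on a single 2-colour array. Of the strains, 24 are numbered up to 32 and 7 from 33 to 42. Every value below is a log2 ratio of strain over C57BL/6J and not a level, so neither the order of abundance among subunits nor the presence of brain markers could be read from it.

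The core particle is a barrel of stacked rings. The outer alpha rings gate the entry, and the inner beta rings carry the chymotrypsin-like (Psmb5), caspase-like (Psmb6) and trypsin-like (Psmb7) active sites. Interferon induces Psmb8, Psmb9 and Psmb10, which take the places of Psmb5, Psmb6 and Psmb7 in newly built particles, the immunoproteasome, and favour peptides for presentation on MHC class I. The cap binds ubiquitin chains, removes them and threads the substrate into the barrel with a ring of ATPases. In neurons the proteasome takes part in synaptic protein turnover, and the subunits of the complex are known to be induced together when its activity falls.

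The table gives no intensities, so no probe could be called dim. A principal component analysis of all features set 7 arrays apart on the first component, with 28.69% of the variance (BXD36 and BXD38 of the strains numbered from 33, and BXD6, BXD8, BXD20, BXD23 and BXD28). Another 8 stood apart on the second, with 11.9% (BXD33, BXD34, BXD39, BXD40 and BXD42, with BXD15, BXD22 and BXD27), and 16 on neither. The labels name no batch, and all 7 strains numbered from 33 lie in the smaller groups of 7 and 8 arrays. Probes in every eighth place of the spot numbering were low: 79.7% of the 1689 named genes measured there alone had a negative mean log ratio past the test below, against 27.5% of the 13187 with no probe there. Of the proteasome genes 10 are measured at that place (Psma1, Psma3, Psmb1, Psmb3, Psmb9, Psmd1, Psmd5, Psmd6, Psmd10 and Psmd12).

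The RefSeq table of promoters (assembly GRCm38.p6), with 250 bases before and 50 after each start, held 42 promoters of 40 of the genes. Of the 7 motifs searched, the ETS site, the letters CCGGAAG, had the largest ratio to its share among all promoters, in 35.71% of the proteasome promoters and in 8.86% of all 32851. The GC box (GGGCGG) was in 52.38% against 35.66%. The core of the site of nuclear respiratory factor 1 (GCGCATGC) was in 7.14%, or 3 promoters, against 2.71%. This factor is not Nfe2l1, the transcription factor of the proteasome named below. Nearer to the shares of all promoters were the CCAAT box (CCAAT) at 33.33% against 37.41%, the antioxidant response element (TGACNNNGC) at 14.29% against 12.39%, and the TATA box (TATAAA) at 9.52% against 13.62%. The interferon gamma activated site (TTCNNNGAA) was in 7.14% against 8.3%, in the promoters of Psmb8, Psmd2 and Psmg1. All motifs were searched on both strands and may overlap each other or a GC-rich stretch, and a match is not evidence of a bound factor. The 250 bases before the start are shown for 4 genes on which results below turn: Psmd14 and Psmd4, which varied with the other subunits, Psmc2, which varied against them (the first of 2 starts), and Psmb9, the inducible subunit with a negative mean. They run 5′ to 3′ on the strand of the gene, with capitals for any match to the motifs above.
Psmd14 (chr2:61711444-61711693, forward strand): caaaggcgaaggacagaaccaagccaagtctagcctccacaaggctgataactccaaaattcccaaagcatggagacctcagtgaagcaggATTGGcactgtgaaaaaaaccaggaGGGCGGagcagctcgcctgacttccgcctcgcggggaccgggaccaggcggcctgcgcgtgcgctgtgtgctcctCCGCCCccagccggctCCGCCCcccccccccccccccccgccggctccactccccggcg
Psmd4 (chr3:95042615-95042864, reverse strand): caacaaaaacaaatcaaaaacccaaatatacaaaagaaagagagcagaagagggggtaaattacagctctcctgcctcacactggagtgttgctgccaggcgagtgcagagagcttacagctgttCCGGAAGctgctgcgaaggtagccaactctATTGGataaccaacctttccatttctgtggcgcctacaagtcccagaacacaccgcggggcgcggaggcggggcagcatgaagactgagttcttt
Psmc2 (chr5:21785025-21785274, forward strand): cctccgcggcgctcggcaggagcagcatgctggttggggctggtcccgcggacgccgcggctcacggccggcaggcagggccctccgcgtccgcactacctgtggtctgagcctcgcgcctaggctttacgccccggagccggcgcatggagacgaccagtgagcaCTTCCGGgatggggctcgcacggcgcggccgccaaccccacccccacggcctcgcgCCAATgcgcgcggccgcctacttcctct
Psmb9 (chr17:34187331-34187580, reverse strand): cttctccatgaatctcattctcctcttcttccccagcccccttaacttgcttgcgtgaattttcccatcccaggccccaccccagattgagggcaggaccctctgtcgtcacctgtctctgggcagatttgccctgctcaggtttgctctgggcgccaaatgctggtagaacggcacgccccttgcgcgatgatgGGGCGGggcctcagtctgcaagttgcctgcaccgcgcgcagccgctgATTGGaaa
Psmd14 holds 3 GC boxes, the nearest beginning 43 bases before the start, and a CCAAT box. Psmd4 and Psmc2 each hold an ETS site and a CCAAT box, and Psmb9 holds a GC box and a CCAAT box, the latter beginning 8 bases before the start. The choice of genes shows no link of motifs with covariation. Psmd13 varied more closely with the other subunits than Psmd4 (r = 0.64 against 0.58). Its 250 bases before the start held 0 matches, although its whole promoter is among those with an ETS site. Psmb1, with the highest r, had no promoter in the table.

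The first comparison asks which subunits differed on average between the BXD strains and C57BL/6J. Of the 48 genes 22 had a positive and 17 a negative mean past limma's test against 0 (adjusted p under 0.05), and 9 did not pass. Background was high: 76.1% of all 21262 features passed, 42.1% upward and 33.9% downward, so the 81.25% of proteasome genes that passed was near the background. The median of the gene means was 0.07, against 0.04 over all features. Against a change of 1.2-fold 12 genes passed, 5 upward and 7 downward, where 27.9% of all features did, 12.4% upward and 15.6% downward. Each mean also holds any fixed dye difference of its probe, since dyes were not swapped, and p-values measure only the spread between arrays of pooled RNA. In whole tissue, fewer cells of a type and less RNA per cell cannot be told apart.

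**Figure D1:**
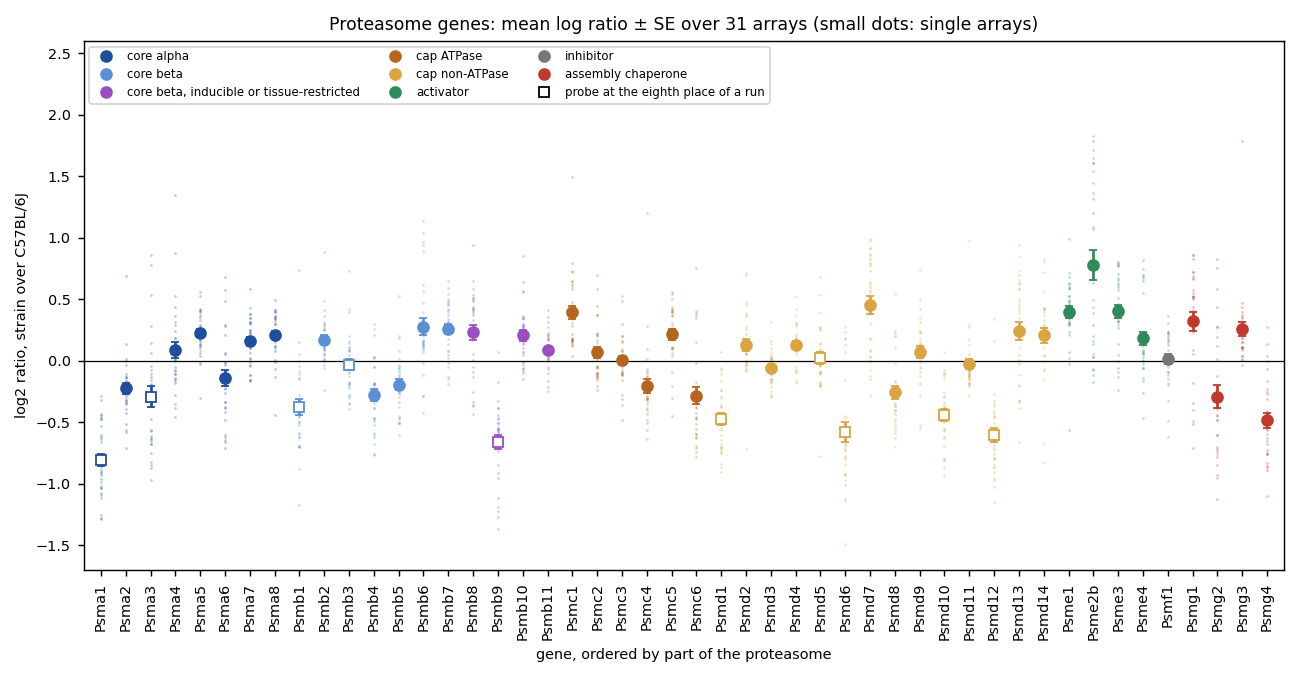
Mean log2 ratio of strain over C57BL/6J with its SE over 31 arrays for the 48 proteasome genes, ordered and coloured by part; small dots are single arrays and open squares mark probes at the eighth place of a run. Activators lie above 0, and the lowest means are mostly open squares.

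The alpha subunits, which form the outer rings, went both ways, with 3 of 8 positive and 4 negative. Psma1 ranged from -1.28 in BXD29 to -0.28 in BXD11 with a median of -0.86. It was below 0 on all 31 arrays and had the lowest mean of all the genes, -0.81 ± 0.05 (SE, n = 31, as for all means below; limma adjusted p = 1.56e-15). Its probe is at the eighth place, and the part of that place in the value was not tested. Psma2 was lower at -0.22 ± 0.04 and Psma3 at -0.29 ± 0.08, with Psma6 near the threshold at -0.14 ± 0.06 (limma adjusted p = 0.0394). Psma6 no longer passed without any 1 of 14 arrays (BXD1, BXD2, BXD9, BXD13, BXD14, BXD15, BXD18, BXD19, BXD21, BXD22, BXD29, BXD31, BXD32 or BXD33; highest limma adjusted p = 0.0706). Higher means were measured for Psma5 (0.22 ± 0.03) and Psma7 (0.16 ± 0.04), and for Psma8 (0.21 ± 0.03), the alpha subunit of the testis proteasome. Psma4 had a mean of 0.09 ± 0.07 and did not pass (limma adjusted p = 0.22).

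Of the standard beta subunits 3 of 7 had a positive and 3 a negative mean. The active-site subunits differed in sign. Psmb5 ranged from -0.60 to 0.52 with a median of -0.20 and a mean of -0.19 ± 0.04 (limma adjusted p = 0.000208), below 0 on all but 5 arrays. Psmb6 ranged from -0.42 to 1.13 with a median of 0.16 and a mean of 0.28 ± 0.07 (limma adjusted p = 0.000413). Psmb7 ranged from -0.19 to 0.65 with a median of 0.31 and a mean of 0.26 ± 0.04 (limma adjusted p = 1.00e-06). Both were above 0 on 26 of 31 arrays. Among the subunits with no active site, Psmb2 was higher (0.17 ± 0.04), Psmb1 (-0.38 ± 0.06) and Psmb4 (-0.28 ± 0.05) were lower, and Psmb3 did not pass at -0.03 ± 0.05.

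The inducible subunits that replace them also differed in sign. Psmb9, for the caspase-like position, ranged from -1.36 in BXD6 to 0.07 in BXD16 with a median of -0.57. It was below 0 on all arrays but 1 and had the second lowest mean, -0.66 ± 0.06 (limma adjusted p = 3.00e-12), again with a probe at the eighth place. Psmb10, for the trypsin-like position, ranged from -0.15 to 0.85 with a median and a mean of 0.20 and 0.21 ± 0.04 (limma adjusted p = 6.04e-05). Psmb8, for the chymotrypsin-like position, is the only one of the genes with 2 probes. Its average ranged from -0.43 to 0.94 with a median of 0.34 and a mean of 0.23 ± 0.06 (limma adjusted p = 0.000904). The probes disagreed: the first had a mean of 0.39 ± 0.05 and was above 0 on 27 arrays, whereas the second had 0.07 ± 0.09, above 0 on 18 arrays, and did not pass (limma adjusted p = 0.487). Across the 31 arrays they correlated with r = 0.40, and with r = -0.71 within the 8 second-component arrays. Psmb11, the beta subunit of the thymus, had a small positive mean of 0.09 ± 0.03. Without the 8 second-component arrays neither Psmb8 (mean 0.15, limma adjusted p = 0.0702) nor Psmb11 (mean 0.04, limma adjusted p = 0.307) passed.

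**Figure D2:**
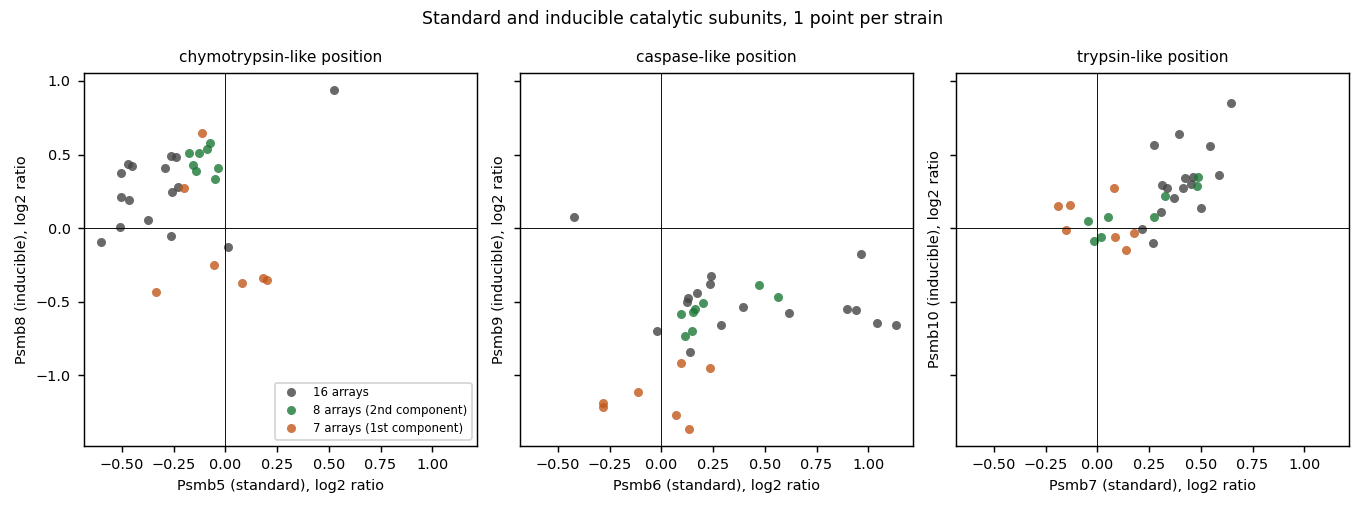
Log2 ratio of each standard catalytic subunit (x axis) against the inducible subunit that takes its place (y axis), 1 point per strain, coloured by array group; Psmb8 is the average of 2 probes. Psmb9 lies below 0 on all arrays but 1, and lowest on the 7 first-component arrays.

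Of the cap ATPases, which unfold substrates, 2 of 6 had a positive and 2 a negative mean. Psmc1 ranged from 0.04 in BXD31 to 1.49 in BXD36 with a median of 0.34. It was above 0 on all 31 arrays, at 0.40 ± 0.05 (limma adjusted p = 4.01e-08). With Psma1 it was 1 of 2 genes of one sign on every array, where 10.2% of all features were. Psmc5 was higher at 0.21 ± 0.04, and Psmc4 (-0.20 ± 0.06) and Psmc6 (-0.28 ± 0.07) were lower. On the 16 arrays apart on neither component Psmc4 was at -0.16 and did not pass (limma adjusted p = 0.132). Psmc2 (0.07 ± 0.04) and Psmc3 (0.00 ± 0.04) did not pass.

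The other cap genes had 5 positive and 5 negative means among 14. Psmd7, the partner of the deubiquitinase Psmd14, ranged from -0.28 in BXD8 to 0.99 in BXD1 with a median of 0.58 and a mean of 0.45 ± 0.07 (limma adjusted p = 6.70e-07). Psmd14 itself ranged from -0.82 in BXD36 to 0.83 in BXD15 with a median of 0.20 and a mean of 0.21 ± 0.06. The ubiquitin receptor Psmd4 (0.13 ± 0.03), the scaffold subunit Psmd2 (0.13 ± 0.05) and the lid subunit Psmd13 (0.24 ± 0.07) were also higher. Psmd2 did not pass without the second-component arrays (mean 0.08, limma adjusted p = 0.204). Lower were the lid subunits Psmd12, from -1.15 to 0.34 with a median of -0.66 and a mean of -0.60 ± 0.06, and Psmd6, from -1.49 to 0.28 with a median of -0.68 and a mean of -0.58 ± 0.08. So were the scaffold subunit Psmd1 (-0.47 ± 0.05), the assembly chaperone Psmd10 (-0.44 ± 0.05) and Psmd8 (-0.26 ± 0.05), and of these 5 genes all but Psmd8 have probes at the eighth place. Psmd3, Psmd5, Psmd9 and Psmd11 did not pass, with means from -0.06 to 0.07. Psmd11, at -0.03 ± 0.04, passed as negative without BXD36 (limma adjusted p = 0.0404), and Psmd3, at -0.06 ± 0.03, without BXD5, BXD11, BXD20 or BXD38 (lowest limma adjusted p = 0.0179). The array groups moved both calls as well. Without the 7 first-component arrays Psmd11 was at -0.11 (limma adjusted p = 1.26e-05) and Psmd3 at -0.07 (limma adjusted p = 0.0329), and on the 16 arrays alone they were at -0.09 (limma adjusted p = 0.00251) and -0.11 (limma adjusted p = 0.0188). Psmd3 also passed with each array centred on its median (-0.07, limma adjusted p = 0.0225). That centring lowered all arrays almost equally, by feature medians of 0.011 to 0.017. The place of the probe went with the sign over the whole family: 0 of the 10 genes at the eighth place had a positive and 8 a negative mean past the test, against 22 and 9 of the other 38.

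All 4 activators, which open the gate of the core particle without ATP, had positive means. The probe assigned to Psme2b, a near copy of Psme2 whose RNA it may not tell apart, ranged from -0.18 in BXD23 to 1.82 in BXD12 with a median of 0.76. Its mean of 0.78 ± 0.12 was the highest of the 48 genes (limma adjusted p = 3.46e-07). Psme1, the interferon-inducible partner of Psme2, ranged from -0.56 in BXD28 to 0.99 in BXD38 with a median of 0.43 and a mean of 0.39 ± 0.05 (limma adjusted p = 1.08e-08). Psme3, the nuclear activator, ranged from -0.24 to 0.80 with a median of 0.40 and a mean of 0.40 ± 0.05 (limma adjusted p = 3.40e-08). Psme4, the single-chain activator, ranged from -0.46 to 0.82 with a median of 0.12 and a mean of 0.18 ± 0.06. Without the 8 second-component arrays Psme4 was at 0.02 and did not pass (limma adjusted p = 0.567).

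The chaperones that build the core particle act in pairs, Psmg1 with Psmg2 and Psmg3 with Psmg4. In each pair the means over the 31 arrays had opposite signs. On the 7 first-component arrays the signs of Psmg1 and Psmg2 were both reversed, at -0.37 and 0.39. Psmg1 ranged from -0.71 to 0.86 with a median of 0.44 and a mean of 0.32 ± 0.08, and Psmg2 from -1.12 to 0.83 with a median of -0.39 and a mean of -0.29 ± 0.09. Psmg3 was at 0.25 ± 0.06, above 0 on 30 of 31 arrays, with 1 high value of 1.79 in BXD23. Psmg4 ranged from -1.10 in BXD27 to 0.28 in BXD18 with a median of -0.54 and a mean of -0.48 ± 0.06 (limma adjusted p = 5.22e-09), the lowest of the genes away from the eighth place. The inhibitor Psmf1 did not pass at 0.01 ± 0.04. Without the 7 first-component arrays it passed as positive, at 0.09 (limma adjusted p = 0.0128).

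**Figure D3:**
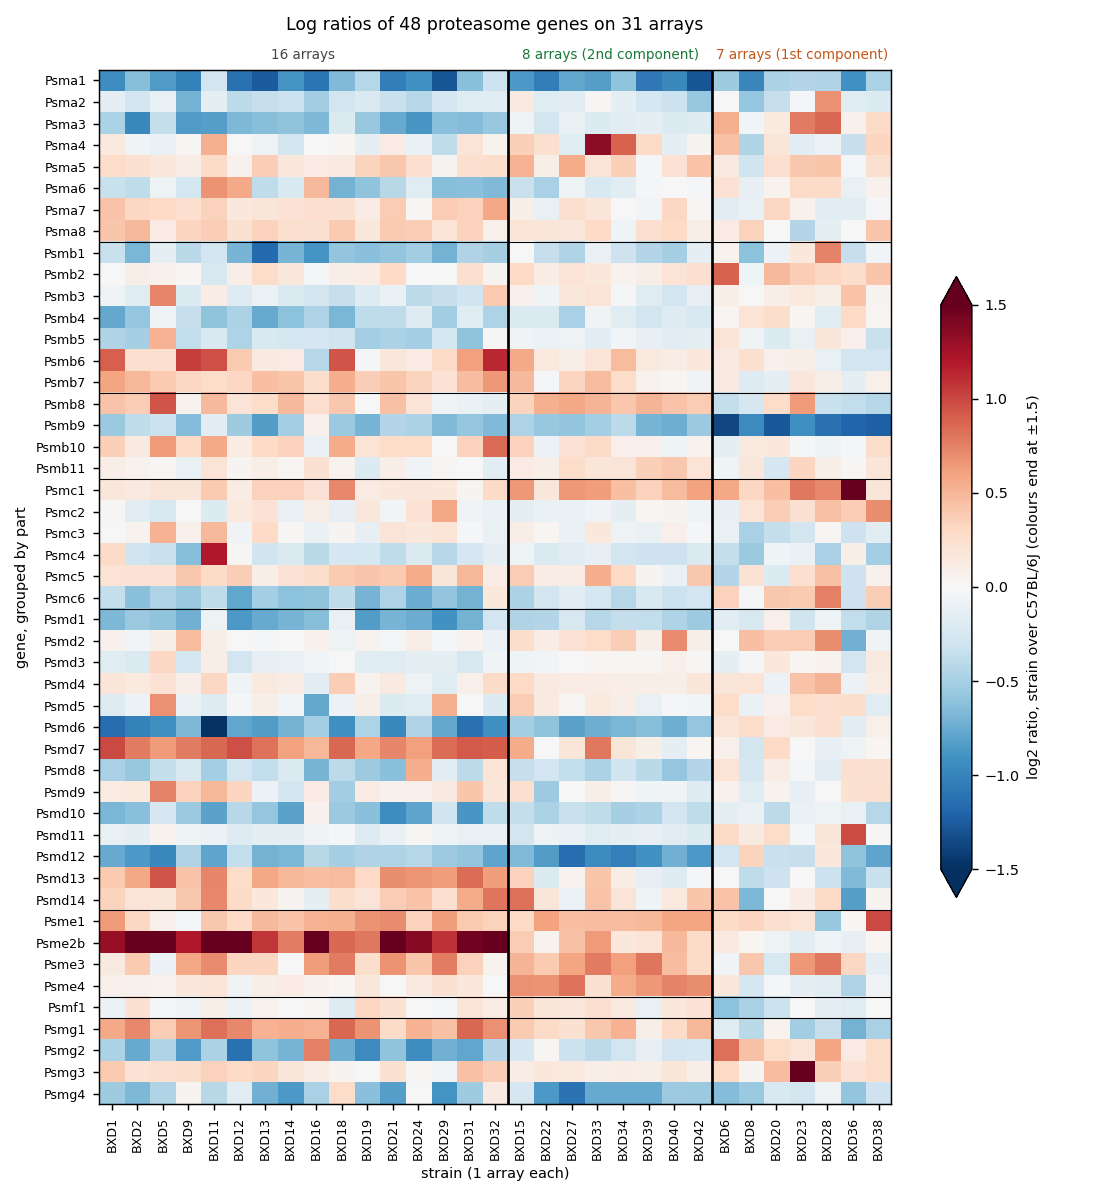
Log2 ratio of strain over C57BL/6J for the 48 genes (rows, by part) on 31 arrays (columns, by array group, split by black lines); red is positive and blue negative, and colours end at ±1.5. Several rows, such as Psme2b, Psmd6, Psmd7 and Psmg1, change colour at the border of the 7 first-component arrays.

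Several of the genes stood apart between the array groups. These groups were read from these data, so the following is a description with no test. Of the 48 genes 22 had a mean of the same sign in all 3 groups (45.83%), where 58.7% of all features did. The 7 first-component arrays did not overlap the 16 arrays apart on neither component for 8 of the 48 genes, where 9.06% of all features did not. For 2 of them, Psma3 and Psmd6, all 7 lay above all 16, as 4.18% of all features did. For 6 (Psmb7, Psmb9, Psmd7, Psmd13, Psme2b and Psmg1) they lay below, as 4.88% did. The 8 second-component arrays did not overlap the 16 for 1 gene, Psme2b, where 4.04% of all features did not. They lay below for Psme2b (2.29% of all features) and above for 0 genes (1.75%).

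Psme2b had a mean of 1.35 (0.76 to 1.82) on the 16 arrays, 0.33 (0.06 to 0.63) on the 8 second-component arrays and -0.03 (-0.18 to 0.14) on the 7 first-component arrays. Of these groups only the last 2 overlapped. Psmb9 was at -0.50 (-0.84 to 0.07), -0.56 (-0.73 to -0.39) and -1.15 (-1.36 to -0.92) in the same order, so that only the 7 arrays stood apart. Psmd6 ran the other way, at -0.86 (-1.49 to -0.45), -0.66 (-0.80 to -0.50) and 0.13 (-0.16 to 0.28). Psma3 was at -0.64, -0.17 and 0.37. Psmg1 was at 0.61, 0.34 and -0.37 and Psmd13 at 0.57, 0.05 and -0.29. For these 3 genes, as for Psme2b, Psmd6 and Psmd7, the sign was not the same in every group. Psmd7 was at 0.77, 0.21 and -0.01 and Psmb7 at 0.41, 0.20 and 0.00. The median size of the gene means was 0.30 on the 16 arrays, 0.23 on the 8 and 0.15 on the 7, against 0.25, 0.27 and 0.23 over all features. Of the activators Psme4 was highest on the 8 second-component arrays, at 0.63 (0.23 to 0.82), against 0.09 (-0.06 to 0.23) on the 16 and -0.14 (-0.46 to 0.15) on the 7.

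**Figure D4:**
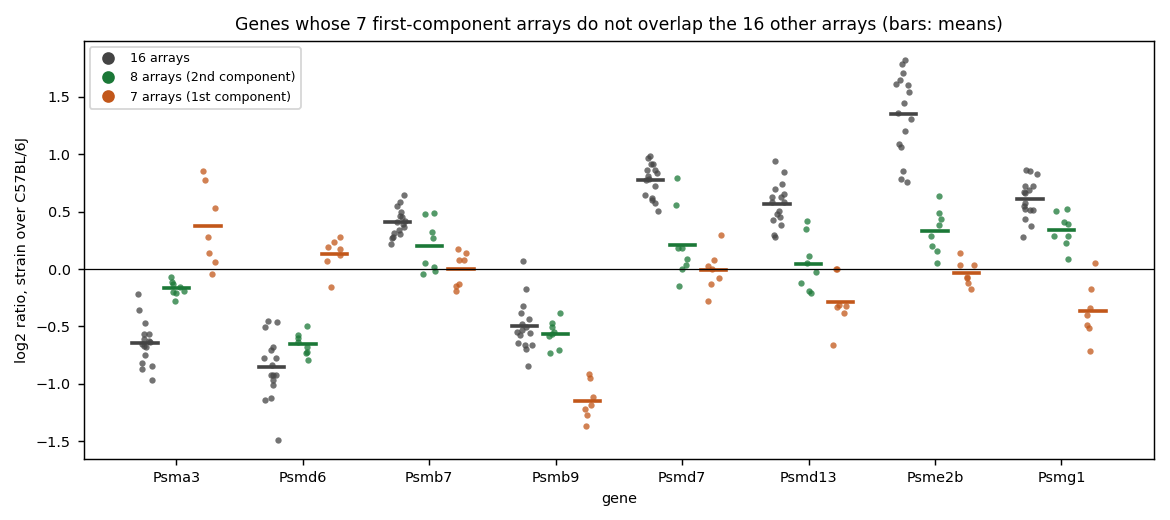
Log2 ratio of strain over C57BL/6J for the 8 genes whose 7 first-component arrays (orange) do not overlap the 16 arrays apart on neither component (grey), with the 8 second-component arrays in green; points are strains and bars are group means. Psma3 and Psmd6 are higher on the 7 arrays and the other 6 genes lower.

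The strains numbered from 33 were compared with those numbered up to 32, with the array group as a block since the sets are unevenly spread over the array groups. With limma 0 of the 48 genes passed (adjusted p under 0.05), and 0% of all features did. At an unadjusted p under 0.05 there were 2, or 4.17%, against 7.29% of all features. These were Psmd12, with a difference of later minus earlier strains of -0.27 (limma unadjusted p = 0.0365, adjusted p = 0.643), and Psme4, with -0.16 (limma unadjusted p = 0.0462, adjusted p = 0.675). The difference for Psmd12 was -0.01 within the second-component arrays and -0.61 within the first-component arrays, where the later strains are 2. Without the block 0 of the 48 passed against 0.48% of all features, and 9 did so unadjusted (18.75%, against 20.2%). After Psmd12 the largest negative differences were -0.27 ± 0.13 (SE) for Psmd2 and -0.23 ± 0.17 for Psmd14, and the 3 largest positive ones were 0.22 ± 0.14 for Psme1, 0.19 ± 0.18 for Psma4 and 0.18 ± 0.10 for Psmc2, all short of the threshold. For Psmd2 the groups differed in sign. Its difference was 0.11 within the second-component arrays and -0.77 within the first-component arrays, where BXD36 was at -0.72.

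The spread between strains was then taken as the SD after subtracting each array group's mean. Values of single strains and counts of extremes in this paragraph are not centred, so they also hold the differences between array groups. The median SD of the 48 genes was 0.22, against 0.21 over all named genes. The most variable were Psmb6 (0.35), Psma6 (0.35), Psma4 (0.34), Psmg2 (0.33) and Psmc4 (0.33). Psmb6 was high in BXD32 at 1.13 and low in BXD16 at -0.42. Single strains set other ranges: Psma4 reached 1.35 in BXD33 and Psmc4 1.199 in BXD11, and for Psma6 the highest was 0.68 in BXD11 and the lowest -0.71 in BXD18. The least spread was that of Psmb11 (0.13). BXD36 held the highest value of 3 and the lowest of 6 of the 48 genes, and BXD5 the highest of 8 and the lowest of 1. Over all features BXD36 held 7.83% of the highest and 8.32% of the lowest values, and BXD5 5.49% and 4.66%.

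The remaining question was whether subunits of the complex varied together between strains. Correlations were taken over the 31 arrays, each centred on the mean of its array group, and are given as a description since the pairs share arrays and RNA pools. The mean Pearson r over the 1128 pairs of proteasome genes was 0.07, against 0.00 over all pairs of features. Leaving out an array moved it between 0.06 and 0.07. Without centring it was 0.04, and within the groups of 16, 8 and 7 arrays 0.05, 0.07 and 0.07. Within the core particle it was 0.13, or 0.17 without the testis subunit Psma8. The beta subunits had 0.15, the alpha subunits 0.10 and the inducible or tissue-restricted subunits 0.17. Within the groups of 16, 8 and 7 arrays these were 0.15, 0.28 and -0.0039 for the beta subunits, 0.11, 0.12 and 0.28 for the alpha subunits, and 0.23, -0.16 and 0.24 for the inducible or tissue-restricted ones. The mean r was 0.10 between core and cap, 0.05 within the cap, 0.01 among its ATPases and -0.11 among the activators.

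**Figure D5:**
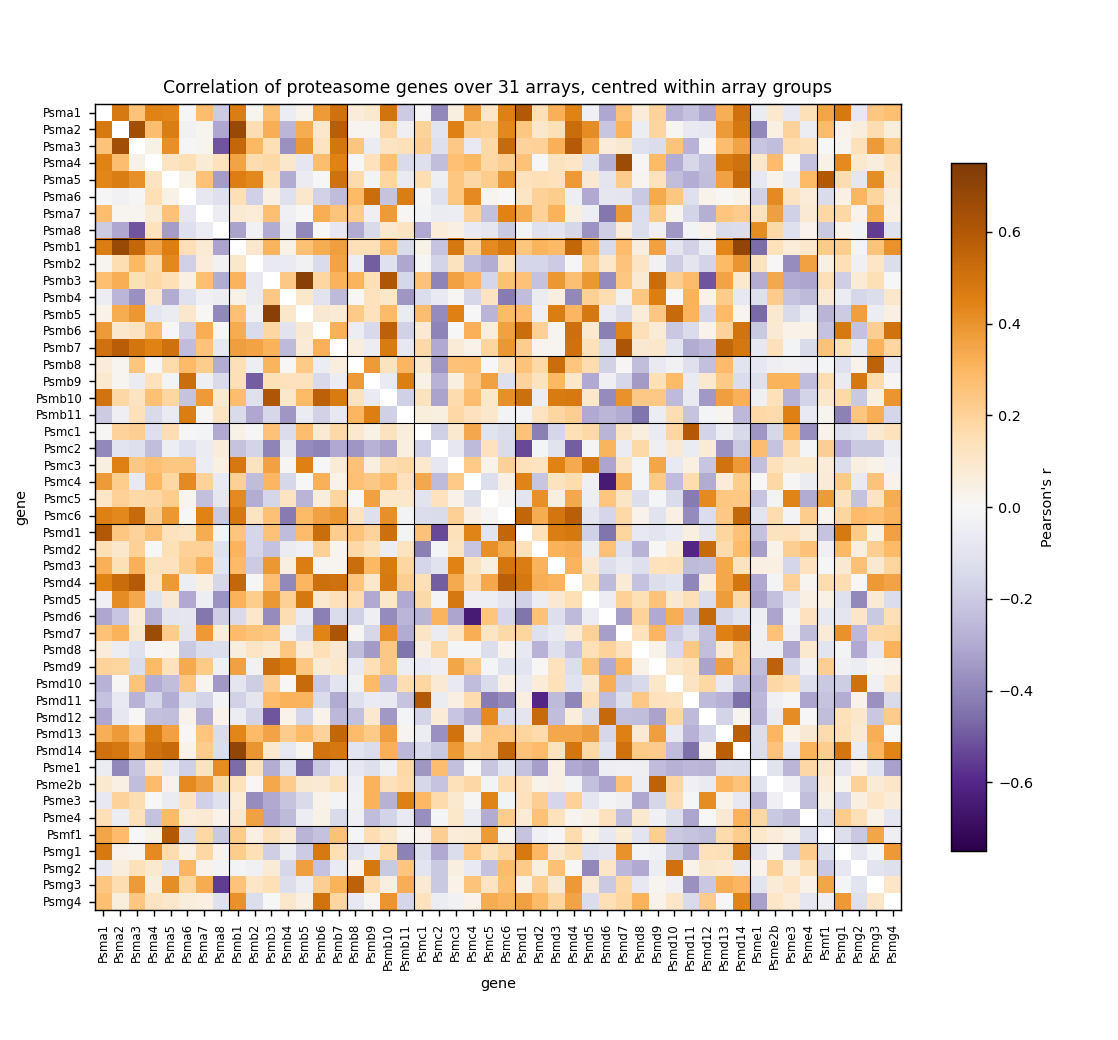
Pearson's r between the 48 genes over 31 arrays, after each value was centred on the mean of its array group; orange is positive, purple negative, and black lines separate the parts of the complex. The core block at the upper left and the rows of Psmb1, Psmd4, Psmd13 and Psmd14 are mostly orange, and the rows of Psmc2 and Psme1 mostly purple.

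Each gene was also set against the mean of the other 47, and 39 of 48 had a positive r. The share of all features with a positive r is not given here, so this count cannot be called particular to the family. The highest were Psmb1 (r = 0.72, Spearman's rho = 0.75), Psmd14 (0.70 and 0.67), Psmd13 (0.64 and 0.62), Psmd4 (0.58 and 0.51) and Psma2 (0.56 and 0.60). These are a core beta subunit, the cap deubiquitinase, a lid subunit, a ubiquitin receptor and an alpha subunit. The lowest were Psmc2 (-0.41 and -0.42), Psme1 (-0.41 and -0.43) and Psma8 (-0.36 and -0.17). The other 5 ATPases of the ring of Psmc2 had r = 0.06 (Psmc1), 0.47 (Psmc3), 0.32 (Psmc4), 0.23 (Psmc5) and 0.55 (Psmc6). Psmc1 was at 0.42 without BXD36 and Psmc4 at 0.09 without BXD11.

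Among single pairs, Psmb1 and Psmd14 had r = 0.70 (rho = 0.77), with 0.52, 0.92 and 0.78 within the 16, 8 and 7 arrays. Psmb7 and Psmd7 had r = 0.61 and Psma2 with Psma3 r = 0.65. Several strong values rested on 1 strain. Psmb3 and Psmb5 had r = 0.72, and 0.46 without BXD5. Psmd2 and Psmd11 had r = -0.60, and -0.14 without BXD36. Psma8 and Psmg3 had r = -0.55, and -0.21 without BXD23. Psmc4 and Psmd6 had r = -0.65, and -0.40 without BXD11. The interferon-induced neighbours Psmb8 and Psmb9, which lie with Tap1 and Tap2 in the MHC region of chromosome 17, had r = 0.38 over all arrays but -0.36 within the 8 second-component arrays. With the peptide transporter genes Tap1 and Tap2, Psmb8 had -0.12 and 0.23 and Psmb9 0.04 and 0.17. All values for Psmb8 use the average of its 2 probes, which disagreed.

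Genes outside the family were ranked by their correlation with the mean of the 48 over the 31 centred arrays. The closest were Bcl11b (r = 0.81), Pcsk1n (0.80), Ndufa1 (0.79), H2az1 (0.79), Ldhb (0.79), Sec61g (0.78), Marcks (0.77) and Cycs (0.76). Within each array group all 8 had a positive r, from 0.62 to 0.97. These are the same arrays that ranked the genes, so this was largely set by the choice. At the lower cut of 0.5, 564 of the 15048 other named genes had a higher r. Mean log ratios of marker lists of brain cell types were set against the family as well. The mean of 7 of 8 listed neuron markers had r = 0.51 and that of 5 of 6 oligodendrocyte markers r = 0.42, whereas 6 of 6 astrocyte markers had r = -0.37 and 6 of 6 endothelial markers r = -0.33. Choroid plexus (4 of 5 markers) had 0.26, pituitary (6 of 6) 0.22, blood (4 of 5) 0.13 and microglia (5 of 6) -0.06. Markers within a list did not share a direction. Among neuron markers Tubb3 had r = 0.58 and Gad1 -0.08, and among oligodendrocyte markers Cnp had -0.61 while the other 4 had 0.31 to 0.47. For astrocytes Gja1 had -0.59 and Slc1a3 0.31, and for endothelium Slc2a1 had -0.70 and Kdr 0.27. The mean neuron marker log ratio was 0.04, 0.07 and -0.20 on the 16, 8 and 7 arrays, and that of oligodendrocytes 0.18, 0.32 and 0.52. The part of cell composition in the covariation was not tested.

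Other genes of the pathway were taken from lists of factors that build, feed or use the proteasome, and are to be read against the same 42.1% and 33.9%. Of 12 listed genes for assembly and transcriptional control 8 were measured, 4 with a positive mean, 3 with a negative and 1 that did not pass. Their average correlated with the family at r = 0.47, and single genes from -0.29 (Nfe2l2) to 0.48 (Ngly1). Ngly1, the glycosidase that activates the proteasome's transcription factor Nfe2l1, was at 0.51 ± 0.06 and Nfe2l1 at 0.32 ± 0.07. Txnl1, a redox protein bound to the cap, was at -0.55 ± 0.04, below 0 on all 31 arrays, and Zfand5, which stimulates the proteasome, at 0.15 ± 0.02. Pomp, the maturation factor of the core, did not pass at -0.14 ± 0.08.

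Of 12 receptors and cap-associated enzymes 9 were measured, with 1 positive, 5 negative and 3 that did not pass. The shuttle factor Ubqln2 was at -0.77 ± 0.04 and Rad23b at -0.25 ± 0.03, both at the eighth place. The deubiquitinase Usp14 was at -0.31 ± 0.04, and Zfand2b at 0.48 ± 0.08. For ubiquitin supply and unfolding 6 of 12 were measured, with 4 positive and 2 negative means. Uba6, a ubiquitin-activating enzyme, was at 0.78 ± 0.05. Vcp, the segregase that extracts ubiquitinated proteins, was at 0.32 ± 0.05, and its cofactors Nsfl1c and Ubxn1 at 0.62 ± 0.08 and 0.28 ± 0.03. Other cofactors of Vcp were lower, Ufd1 at -0.30 ± 0.05 and Ubxn6 at -0.63 ± 0.11.

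Of 15 genes of interferon signalling and antigen processing 12 were measured, with 5 positive means, 5 negative and 2 that did not pass. Their average correlated with the family at r = -0.45, but the genes did not share a direction. B2m had r = 0.56 and Irf8 0.21, whereas Tap1 had -0.55 and Tapbp -0.51. Irf8 (-0.53 ± 0.03) and Irf9 (-0.29 ± 0.06), transcription factors of the interferon response, were lower, both measured at the eighth place. The receptor chain Ifnar2 was higher (0.45 ± 0.06), and B2m, the light chain of MHC class I, lower (-0.25 ± 0.05). Tap1 and Tap2 had means of 0.11 ± 0.05 each, close to the threshold (limma adjusted p = 0.0429 and 0.0471).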

How the data were processed

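The authors deposited 1 table of log ratios, taken as log2 values, for 23040 spots on 31 arrays, and no value was missing. R 2.0.0 and limma are the tools named, per the submitters' processing notes. Steps of background correction and spot filtering were not given in the sources used here. Sorted, the columns were identical, so every array had the same distribution of values and a shift common to an array had been removed. The scale, centring and direction of the deposited log2 ratios were not stated: strain over C57BL/6J was read from the titles and from which RNA is in channel 1, and all signs would turn with the other direction. The column medians were all 0.0127.

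Symbols came from the platform annotation: 16874 probes had 1 symbol, 134 several and 6032 none. All 48 genes matched a RefSeq gene. Probes of a gene were averaged, giving 21262 features with the unnamed spots. Means were tested with limma 3.58.1 in R 4.3.3 (lmFit, eBayes, two-sided, Benjamini-Hochberg over all features; treat for 1.2-fold). The C57BL/6J reference stands for 1 control sample, whose own spread is left out. Strain sets were compared with the array group (component score beyond 0.2) as a block. On simulated data with 21262 features, 100 genes were shifted by each size in each comparison. In the mean test 81% of genes shifted by 0.25 and 96% by 0.5 were recovered. Between strain sets these were 49% by 0.5 and 81% by 1. Recovery with as many passing features as in the deposited data, 76.1% in the mean test, was not tested. The number of arrays limits the precision.

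The genes described singly were those with the 6 highest and 6 lowest passing means, the catalytic subunits, activators and Psmb8 with its probes, the 5 largest SDs, the 3 largest set differences in each direction, and the 5 highest and 3 lowest correlations; others were named by role. From each pathway list up to 4 passing genes with the smallest p-values were named, and others as background. The genes and lists were chosen with earlier results of these data known. Alternatives were the 1.2-fold threshold, robust variances, other centring, subsets of arrays, single probes, probes away from the eighth place, other forms of correlation and leaving out each array.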

Additional observations from a re-analysis of the deposited data

Results flagged for a closer look

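Among the 7 strains numbered from 33, a single strain lay far from the other 6 for 7 of the 48 genes (14.6%), by Dixon's criterion. The share over all 21262 features was 14.7%, where chance gives about 1 in 20 in groups of one kind, and these 7 strains hold 2 first-component and 5 second-component arrays. BXD36 accounted for 5 of them. It was highest for Psmc1 at 1.49 (the others 0.18 to 0.62) and for Psmd11 at 0.97 (-0.20 to 0.02). It was lowest for Psmd14 at -0.82 (-0.06 to 0.43), Psmd3 at -0.29 (0.01 to 0.14) and Psmd4 at -0.091 (0.08 to 0.18). BXD38 was highest for Psmc6 at 0.37 (-0.43 to -0.23). BXD33, a second-component array, was highest for Psmd7 at 0.79 (-0.15 to 0.18). BXD36 and BXD38 are first-component arrays. Against the other 6 arrays of that group BXD36 was still highest for Psmc1 (the others 0.18 to 0.80) and Psmd11 (-0.03 to 0.29) and lowest for Psmd14 (-0.67 to 0.42) and Psmd3 (-0.15 to 0.16). For Psmd4 it lay at the lower end of them (-0.09 to 0.52), and for Psmc6 BXD38 lay inside their range (-0.31 to 0.75). Against the other 7 second-component arrays BXD33 was highest for Psmd7 (-0.15 to 0.56). The correlation of Psmc1 with the other genes was 0.06 over all 31 arrays and 0.42 without BXD36.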

How the results depend on the processing

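Of the 48 genes 42 kept the direction of their mean under every alternative run, and 35 kept both direction and call under all but the 1.2-fold threshold. That threshold left 12 genes, 5 positive and 7 negative. None of the alternatives for the means took the 7 first-component or the 8 second-component arrays alone, so a kept direction does not mean 1 sign in every array group. Only 22 of the 48 genes had a mean of the same sign in all 3 groups. Psmc6, for example, was at -0.52 on the 16 arrays and 0.28 on the 7. Without probes at the eighth place 9 negative means passed among 38 genes, and the median of the means was 0.14. The mean pairwise correlation was 0.0362 without centring, 0.0421 with the first 3 principal components removed and 0.0515 on the 16 arrays alone. The median SD was 0.29 without centring on the array group. Reversed means were all close to 0 and did not pass: Psma4 at -0.0071 without the second-component arrays and -0.0033 on the 16 alone, Psmc2 at -0.0044 without the first-component arrays, Psmc3 at -0.012 with each array centred on its median and -0.00046 without the second-component arrays, Psmd11 at 0.017 without the second-component arrays, Psmd5 at -0.0051 without the first-component arrays and -0.045 on the 16 alone, and Psmf1 at -0.0023 with centring and -0.043 without the second-component arrays. Leaving out 1 array changed the call of 3 genes: Psma6 (limma adjusted p from 0.0103 to 0.0706), Psmd11, which passed without BXD36 (limma adjusted p = 0.0404), and Psmd3, which passed without BXD5, BXD11, BXD20 or BXD38 (lowest limma adjusted p = 0.0179). The cause of these changes was not tested. No paired analysis was possible because each strain has 1 array and the labels give no shared replicate numbers. Signal over background was not analysed here.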
